A study of Mus musculus with 12 samples.

Results

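Nptx1, Vgf, Spock2, Adora2a, Slc1a3, Rtn2, Crmp1, Rundc3a, Fabp7 and Cend1 are genes best known from neurons and glia, and they were read here in cultured mouse FAPs (fibro-adipogenic progenitors), mesenchymal cells of the space between muscle fibres. The 10 symbols were chosen by their levels in these same libraries, which differed widely between groups. Their differences among all 4 groups are therefore given as a description, with no test. All 10 symbols matched an Ensembl gene ID among the 55335 gene rows of the count files, and all 10 were among the 16597 genes that passed the filter on low counts.

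RNA-seq was made from 12 libraries in 4 groups of 3. FAPs were sorted from mouse limb muscle as live Lin- Vcam- Sca1+ cells and cultured in alpha-MEM containing serum. Smn1OE_K186R and Smn1OE cultures carried human SMN, with the K186R point mutation or unmutated, and had been given 4-hydroxytamoxifen (4-OHT, 1 µM, with the medium changed after 24 h) for deletion of Bap1. Bap1KO cultures had been given the same 4-OHT with no SMN construct, and WT cultures had been given ethanol. BAP1 is a nuclear deubiquitinase of histone H2A, and SMN is the RNA-binding protein whose loss causes spinal muscular atrophy. No group had 4-OHT without deletion, an empty vector, or SMN without 4-OHT, so each of these cannot be told apart from the comparison it travels with. The source labels trace the groups given 4-OHT to Prrx1Cre;Bap1f/f mice and WT to wild-type mice, whereas the treatment text names Rosa-CreER as the driver of deletion. The labels do not say which animals the 3 samples of a group came from. The p-values thus measure the spread between these samples, which may be technical.

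Background on the genes helps to read the values. NPTX1, a neuronal pentraxin, is secreted and gathers AMPA-type glutamate receptors at synapses, VGF is a granin-like precursor of secreted peptides, and SPOCK2 (testican-2) is a secreted matrix proteoglycan. ADORA2A is an adenosine receptor that raises cyclic AMP, and SLC1A3 takes up glutamate and aspartate, chiefly in astrocytes. RTN2 shapes tubules of the endoplasmic reticulum, CRMP1 relays semaphorin signals to the cytoskeleton, RUNDC3A is a RUN-domain protein that binds Rap2, FABP7 binds fatty acids in radial glia, and CEND1 is linked to cell cycle exit of neural precursors.

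Promoter sequences are shown for the 2 genes whose profiles over the 12 libraries lay closest among the 10 (Rtn2 and Cend1) and for the 2 with the widest gaps between SMN cultures and Bap1KO cultures in opposite directions (Slc1a3 and Crmp1). They come from RefSeq on GRCm38.p6, which is not the GRCm39 build of the counts, and hold the 250 bases before the annotated start, 5′ to 3′ on the gene's strand. Capitals mark the GC box GGGCGG on either strand. The regions are chr7:19282374-19282623 (Rtn2, plus strand), chr7:141429563-141429812 (Cend1, minus strand), chr15:8710808-8711057 (Slc1a3, minus strand) and chr5:37241808-37242057 (Crmp1, plus strand, the first of its 2 listed promoters).
Rtn2: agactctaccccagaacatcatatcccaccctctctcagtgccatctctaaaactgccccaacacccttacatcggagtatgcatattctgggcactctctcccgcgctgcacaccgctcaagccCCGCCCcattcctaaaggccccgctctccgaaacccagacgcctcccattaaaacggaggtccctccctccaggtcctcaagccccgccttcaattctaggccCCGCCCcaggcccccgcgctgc
Cend1: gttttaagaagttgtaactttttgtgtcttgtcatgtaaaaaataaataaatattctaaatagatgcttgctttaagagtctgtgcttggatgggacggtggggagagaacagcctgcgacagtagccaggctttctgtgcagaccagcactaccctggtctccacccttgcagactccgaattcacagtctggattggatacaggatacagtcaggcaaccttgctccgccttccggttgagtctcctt
Slc1a3: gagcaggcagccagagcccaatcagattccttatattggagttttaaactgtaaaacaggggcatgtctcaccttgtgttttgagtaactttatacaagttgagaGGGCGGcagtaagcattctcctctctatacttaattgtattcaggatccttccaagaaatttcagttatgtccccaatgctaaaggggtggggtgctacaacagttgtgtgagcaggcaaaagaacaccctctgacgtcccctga
Crmp1: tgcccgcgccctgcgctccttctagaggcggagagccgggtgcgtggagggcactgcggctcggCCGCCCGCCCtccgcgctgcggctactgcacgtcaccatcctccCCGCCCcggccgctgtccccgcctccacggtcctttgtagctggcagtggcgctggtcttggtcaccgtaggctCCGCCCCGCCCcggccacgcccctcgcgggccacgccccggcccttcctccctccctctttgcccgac
The promoter table matched 6 of the 10 genes with 7 promoters, and Nptx1, Vgf, Adora2a and Rundc3a had no entry. The 4 sequences differ widely in CpG content: Crmp1 has 30 CpG, Rtn2 has 13, Cend1 has 5 and Slc1a3 has 2, whereas the median over all 32841 promoters of this length is 6 (quartiles 2 and 16). A GC box on either strand lay in 4 of the 7 promoters and in 32.7% of all. The core ACGTG, whose letters are also part of the E-box CACGTG, lay in 2 of 7 and in 16.6% of all. None of the 7 held TGACGTCA (1.55% of all), TGANTCA (6.75%), CACGTG (6.02%) or CAGCACC (5.73%), searched on both strands. The closest pair, Rtn2 and Cend1, shared no motif of this search.

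Libraries held 51.2 to 68.2 M counts in genes. Bap1 itself, counted over the whole gene and so no full check of the deletion, stood at 45.3 ± 3.15 CPM in Smn1OE_K186R, 49.1 ± 1.4 CPM in Smn1OE and 40.3 ± 1.74 CPM in Bap1KO cultures, against 50.5 ± 1.32 CPM in WT cultures (± is the SD throughout, n = 3 each; CPM are TMM-normalised counts per M counts of a library). The labels put WT and Bap1KO libraries in the culture media batches A, B and C, 1 of each per batch, and the SMN groups in batches D, E and F. SMN cultures also differed from the others in sex-linked expression: Xist averaged 0.0425 CPM in Smn1OE_K186R and 0.0163 CPM in Smn1OE cultures, against 252 CPM in Bap1KO and 228 CPM in WT cultures. The Y-linked gene Eif2s3y averaged 63 CPM in Smn1OE_K186R and 59.8 CPM in Smn1OE cultures, against 0 CPM in Bap1KO and WT cultures. This is the pattern of male cells in the SMN cultures and of female cells in the others. SMN, media batch and the sex of the cells therefore cannot be told apart wherever an SMN group is set against Bap1KO or WT. In bulk RNA, fewer cells of a type and less RNA per cell cannot be told apart either.

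FAP genes were read in every group. The 6 FAP markers (Pdgfra, Ly6a, Cd34, Dpt, Dcn, Lum) summed to 365 to 543 CPM in Smn1OE_K186R, 277 to 496 CPM in Smn1OE and 747 to 1156.9 CPM in Bap1KO libraries, against 1244.9 to 1493.9 CPM in WT libraries. Pdgfra, the receptor that defines FAPs, fell in Bap1KO (33.8 ± 6.81 CPM) relative to WT (90.9 ± 15 CPM; log2 fold change -1.43, edgeR adjusted p = 0.00398), and it was the 1 FAP marker called there, none being called higher. With media batch as a block all 6 were called lower. Ly6a, which encodes Sca1, carried most of each sum, at 318 CPM in Smn1OE_K186R, 276 CPM in Smn1OE and 718 CPM in Bap1KO cultures, against 888 CPM in WT cultures. Cd34 went the other way with SMN, at 60.9 CPM in Smn1OE_K186R and 65.3 CPM in Smn1OE cultures, against 23.5 CPM in Bap1KO and 44.1 CPM in WT cultures. It was the 1 marker that rose against Bap1KO, in Smn1OE_K186R (log2 fold change 1.37, adjusted p = 0.00904) and in Smn1OE (1.47, adjusted p = 0.00612), while 2 fell in Smn1OE_K186R and 3 in Smn1OE. Several defining neuronal and glial markers were near 0: no library held more than 6 counts of Rbfox3, 5 of Elavl3, 7 of Elavl4, 8 of Snap25, 2 of Dcx, 12 of Sox10 or 12 of Gfap. Other listed genes were plainly read in every group: the neuronal tubulin gene Tubb3 averaged 69.1 CPM in Smn1OE_K186R, 63.7 CPM in Smn1OE and 67.5 CPM in Bap1KO cultures, against 73.1 CPM in WT cultures, and the glial calcium-binding gene S100b averaged 6.13, 5.96 and 7.6 CPM in these groups, against 10.7 CPM in WT cultures. Eno2, a neuronal enolase gene, averaged 17.8, 18.7 and 18.8 CPM in these groups, against 20.9 CPM in WT cultures. Myogenic markers summed to at most 0.0608 CPM in any library.

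Library values are given for replicates 1, 2 and 3 of each group in that order, and the secreted genes come first. Nptx1 (ENSMUSG00000025582, chromosome 11) stood at 58.1, 55.5 and 71.4 CPM in Smn1OE_K186R libraries and at 58.1, 56.7 and 78.1 CPM in Smn1OE libraries. Bap1KO libraries held 17.2, 44 and 18.9 CPM, against 1.32, 3.04 and 1.49 CPM in WT libraries. Every SMN library lay above every Bap1KO library, and every Bap1KO library above every WT library. Replicate 2, which is media batch B, was the highest in both Bap1KO and WT, and the log2 difference between them was 3.67, 3.84 and 3.64 within batches A, B and C. Over all libraries the log2 fold change of Bap1KO against WT was 3.77 (SE 0.396), a 13.7-fold higher level, and it was 3.21 without Bap1KO replicate 2. Against WT the level was 31.6-fold higher in Smn1OE_K186R and 33-fold higher in Smn1OE.

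Vgf (ENSMUSG00000037428, chromosome 5) was high in Bap1KO libraries alone. Its levels were 15.8, 8.93 and 9 CPM in Smn1OE_K186R, 11.8, 9.11 and 7.25 CPM in Smn1OE and 25.3, 19.7 and 42.1 CPM in Bap1KO libraries, against 9.67, 7.77 and 13.7 CPM in WT libraries. All 3 Bap1KO libraries lay above the other 9, while both SMN groups overlapped WT. The log2 fold change of Bap1KO against WT was 1.48 (SE 0.319), and the log2 differences to WT were 0.12 (SE 0.316) in Smn1OE_K186R and -0.14 (SE 0.317) in Smn1OE.

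Spock2 (ENSMUSG00000058297, chromosome 10) was read at 2.69, 2.38 and 2.97 CPM in Smn1OE_K186R, 2.34, 2.3 and 2.46 CPM in Smn1OE and 4.4, 3.46 and 4.37 CPM in Bap1KO libraries, against 1.16, 0.946 and 1.22 CPM in WT libraries. Both SMN groups sat in the gap between Bap1KO and WT and overlapped neither. The log2 difference to WT was 1.27 (SE 0.181) in Smn1OE_K186R and 1.09 (SE 0.181) in Smn1OE, which is 67.8% and 58.2% of the Bap1KO difference of 1.88 (SE 0.182). A miRNA gene inside Spock2, Mir6906, had 0 counts in every library.

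**Figure D1:**
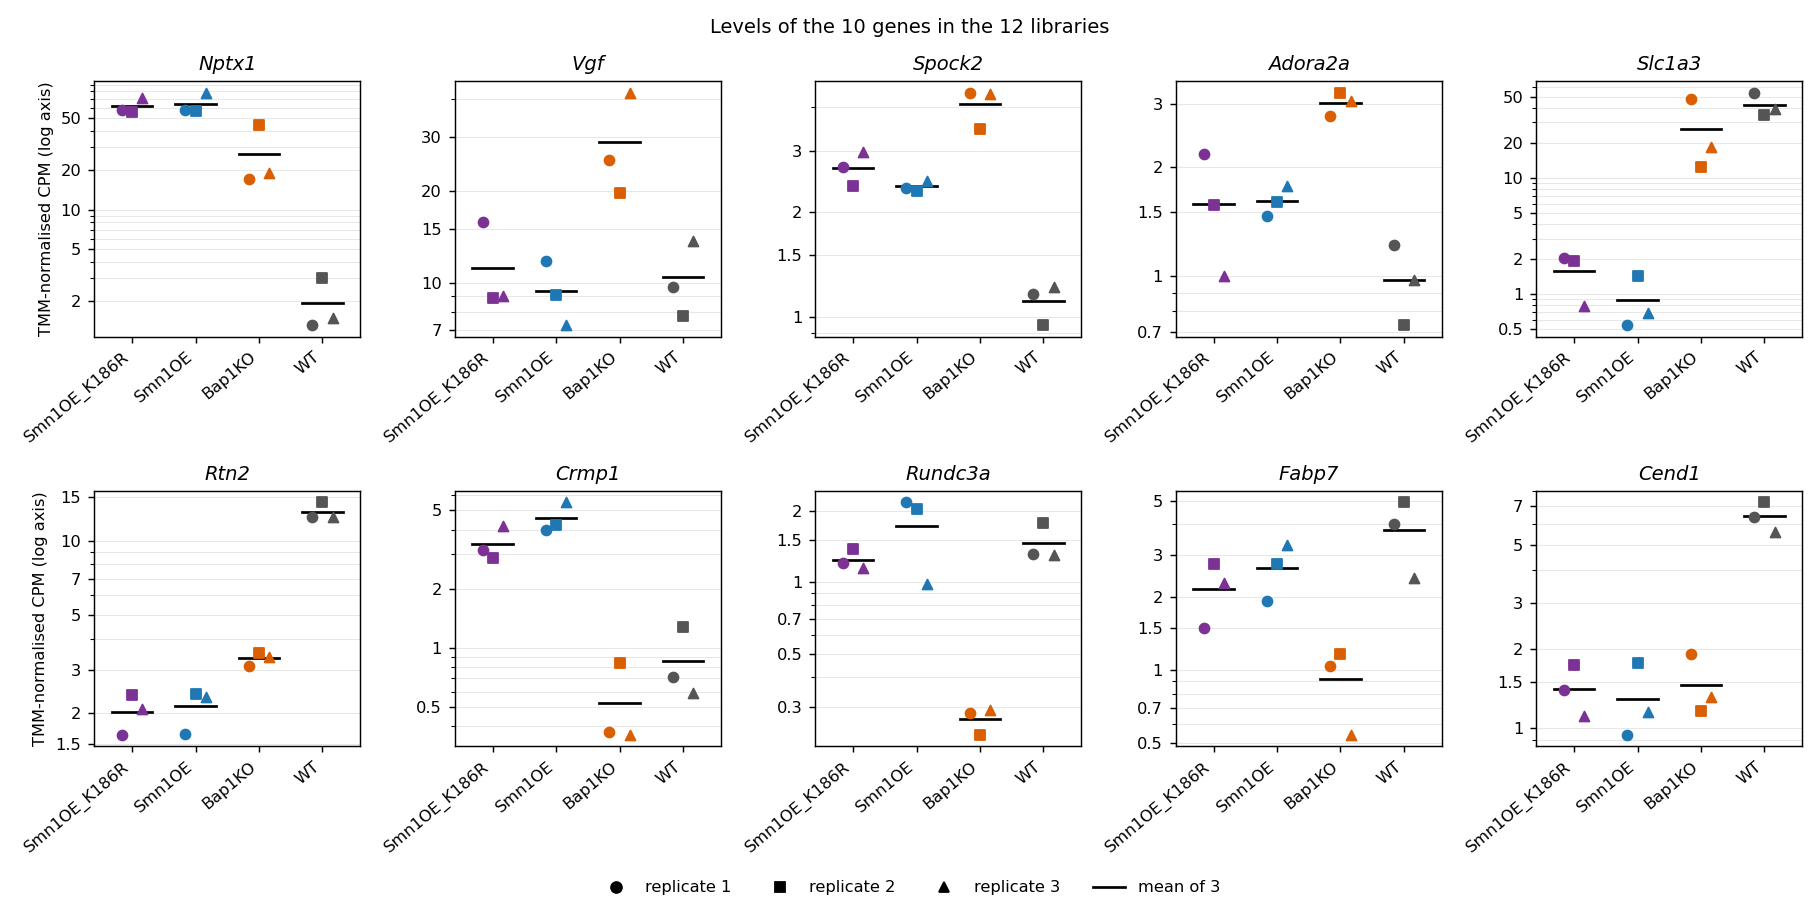
Normalised level in CPM (log axis) of the 10 genes, 1 panel per gene, in Smn1OE_K186R, Smn1OE, Bap1KO and WT libraries; points are libraries, shaped by replicate number, and bars are group means, n = 3 each. Nptx1 is highest in the SMN groups, lower in Bap1KO and lowest in WT, Vgf is high in Bap1KO alone, and Cend1 is high in WT alone.

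Relatives of the secreted genes did not share one direction. Of 6 neuronal pentraxin and AMPA receptor genes 4 were tested, and in Bap1KO against WT 0 were called by edgeR at an adjusted p under 0.05, 1 had an unadjusted p under 0.05 and DESeq2 called 1. Over all genes tested 9.72% were called there, 3.36% higher and 6.37% lower, and 26.2% had an unadjusted p under 0.05. The median log2 fold change of the list was -0.08, against 0.00 over all genes. With media batch as a block, where 29% of all genes were called, Nptx2 (0.64) and Gria3 (0.30) were called higher and Nptxr, the pentraxin receptor, lower (-0.46). Nptx2, the close paralogue of Nptx1, averaged 6.28 CPM in Smn1OE_K186R, 6.95 CPM in Smn1OE and 3.78 CPM in Bap1KO cultures, against 2.3 CPM in WT cultures. It rose relative to WT in Smn1OE_K186R (log2 fold change 1.44, edgeR adjusted p = 0.00835) and in Smn1OE (1.59, adjusted p = 0.0049), and it missed the threshold against Bap1KO in Smn1OE_K186R (0.73, adjusted p = 0.155) and in Smn1OE (0.87, adjusted p = 0.0929). None of the 4 was called by edgeR in an SMN group against Bap1KO, where 0 genes in Smn1OE_K186R and 1 in Smn1OE had an unadjusted p under 0.05 and DESeq2 called 0 and 1.

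Of 9 granin and dense-core vesicle genes 5 were tested, and edgeR called 0 of them in Bap1KO against WT, with 1 at an unadjusted p under 0.05 and 0 by DESeq2 (list median 0.27). Cpe, a peptide-processing enzyme, rose relative to Bap1KO in Smn1OE_K186R (log2 fold change 0.72, edgeR adjusted p = 0.0223) and in Smn1OE (0.78, adjusted p = 0.0156). The first call was lost with only the 2 groups in the fit. It was also lost without Smn1OE_K186R replicate 3, Bap1KO replicate 1 or Bap1KO replicate 3 (adjusted p up to 0.071 over these settings). The second call was lost without Bap1KO replicate 3 (0.052). Pcsk1, a prohormone convertase, fell in Smn1OE against Bap1KO (-0.97, adjusted p = 0.044). This did not hold with limma and media batch as a random effect. Nor did it hold when any 1 of Smn1OE replicates 2 and 3, Bap1KO replicates 1 and 3 and WT replicate 3 was left out (adjusted p up to 0.145 over these settings). For scale, 32.6% of all genes were called in Smn1OE_K186R against Bap1KO (16.1% higher, 16.5% lower) and 33.5% in Smn1OE against Bap1KO (15.8% higher, 17.7% lower). At an unadjusted p under 0.05 the shares were 44% and 44.7%.

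Of 6 SPARC and testican genes 5 were tested. Sparcl1 fell in Bap1KO against WT (log2 fold change -1.63, edgeR adjusted p = 0.0304, up to 0.115 when Bap1KO replicate 2, Bap1KO replicate 3, WT replicate 1 or WT replicate 3 was left out), and the list median was -0.23. With media batch as a block 3 were lower and 0 higher. In each SMN group against Bap1KO 3 fell and 1 rose, with list medians of -0.68 in Smn1OE_K186R and -0.64 in Smn1OE, against -0.01 over all genes in both. Sparc, an abundant collagen-binding matrix protein, averaged 4993.3 CPM in Smn1OE and 7825.3 CPM in Bap1KO cultures and fell in Smn1OE_K186R (-0.56, edgeR adjusted p = 0.00216) and in Smn1OE (-0.65, adjusted p = 0.00093). Spock3, another testican, rose in Smn1OE_K186R (1.63, adjusted p = 0.0178) and in Smn1OE (1.81, adjusted p = 0.0103), and the first of these calls was lost without Smn1OE_K186R replicate 3 or Bap1KO replicate 1 (up to 0.0702). Spock2 thus lay lower, and Spock3 higher, in SMN cultures than in Bap1KO cultures. Spock3 rests on few counts: 26 to 40 per library in Smn1OE_K186R, 32 to 44 in Smn1OE and 10 to 12 in Bap1KO, against 1 to 7 in WT.

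The receptor and the transporter behaved differently. Adora2a (ENSMUSG00000020178, chromosome 10) was read at 2.18, 1.57 and 0.998 CPM in Smn1OE_K186R, 1.47, 1.6 and 1.78 CPM in Smn1OE and 2.77, 3.22 and 3.05 CPM in Bap1KO libraries, against 1.22, 0.732 and 0.975 CPM in WT libraries. Bap1KO lay above all other libraries, Smn1OE sat between Bap1KO and WT, and Smn1OE_K186R overlapped WT through its replicate 3 alone. The log2 fold change was 1.63 (SE 0.28) in Bap1KO against WT, and 0.70 (SE 0.28) and 0.73 (SE 0.28) remained in Smn1OE_K186R and Smn1OE against WT, which is 43.2% and 44.6% of it.

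Slc1a3 (ENSMUSG00000005360, chromosome 15) stood at 2.03, 1.93 and 0.791 CPM in Smn1OE_K186R, 0.54, 1.42 and 0.682 CPM in Smn1OE and 47.8, 12.4 and 18.3 CPM in Bap1KO libraries, against 54.1, 34.5 and 38.9 CPM in WT libraries. Every SMN library lay far below every Bap1KO and WT library, while Bap1KO replicate 1 fell inside the WT range, so a shift with Bap1 deletion was not shown by non-overlapping libraries. The log2 difference of Bap1KO to WT was -0.70 (SE 0.45) over all libraries and -0.18, -1.47 and -1.09 within batches A, B and C. Without Bap1KO replicate 1 it was -1.46. In the fit, the level was 26.5-fold lower in Smn1OE_K186R and 47.8-fold lower in Smn1OE than in WT. Gm37310, which overlaps Slc1a3 on the same strand, had at most 9 counts in any library.

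Among 10 adenosine genes 9 were tested, and in Bap1KO against WT 1 rose and 1 fell (list median -0.23; 1 higher and 2 lower with the block). Slc29a1, the equilibrative nucleoside transporter that carries adenosine across the membrane, averaged 31.2 ± 2.7 CPM in Smn1OE_K186R, 29.5 ± 3.36 CPM in Smn1OE and 56.6 ± 3.36 CPM in Bap1KO cultures, against 100.3 ± 8.38 CPM in WT cultures (SD, n = 3 each). It fell in Bap1KO against WT (log2 fold change -0.83, SE 0.0996, edgeR adjusted p = 0.00109) and fell further in Smn1OE_K186R (-0.86, adjusted p = 0.000306) and Smn1OE (-0.94, adjusted p = 0.000165) against Bap1KO. Adk, adenosine kinase, rose in Bap1KO against WT (0.35, adjusted p = 0.0137, up to 0.0666 without Bap1KO replicate 3, WT replicate 1 or WT replicate 2). Ada, adenosine deaminase, fell in Smn1OE_K186R (-0.74, adjusted p = 0.0032) and in Smn1OE (-0.69, adjusted p = 0.00424) against Bap1KO. In all, 2 rose and 2 fell in Smn1OE_K186R against Bap1KO, and 2 rose and 3 fell in Smn1OE against Bap1KO (list medians -0.18 in both). Of the other adenosine receptors, Adora3 had 0 counts in every library, and Adora2b rose in Smn1OE_K186R against Bap1KO (0.56, adjusted p = 0.049). The Adora2b call was lost with only the 2 groups in the fit. It was also lost without any 1 of 9 libraries, all but Bap1KO replicate 2 and WT replicates 1 and 2 (up to 0.173 over these settings).

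All 9 SLC1 and glutamate-handling genes were tested, and edgeR called 0 in Bap1KO against WT, with 3 at an unadjusted p under 0.05 and 1 by DESeq2 (list median -0.13). With media batch as a block 1 was higher and 3 were lower. Slc1a6, another glutamate transporter, averaged 6.69 ± 2.85 CPM in Smn1OE and 23.5 ± 2.77 CPM in Bap1KO cultures. It fell in Smn1OE_K186R (log2 fold change -1.68, edgeR adjusted p = 0.000602) and in Smn1OE (-1.81, adjusted p = 0.000339). Slc1a5, a neutral amino acid transporter, fell in Smn1OE_K186R (-1.03, adjusted p = 0.00153) and in Smn1OE (-1.08, adjusted p = 0.00107). Slc1a2, the other main astrocyte glutamate transporter, moved the opposite way: it rose in Smn1OE_K186R (1.67, adjusted p = 0.0146, up to 0.0567 without Bap1KO replicate 1 or 3) and in Smn1OE (2.10, adjusted p = 0.00482), where it averaged 2.83 ± 1.44 CPM against 0.656 ± 0.22 CPM in Bap1KO cultures (SD, n = 3 each). These 3 were the genes of the list called in the SMN groups against Bap1KO, with list medians of -0.12 in Smn1OE_K186R and -0.15 in Smn1OE.

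Rtn2 (ENSMUSG00000030401, chromosome 7) was lower in every group that had received 4-OHT. It was read at 1.64, 2.36 and 2.09 CPM in Smn1OE_K186R, 1.65, 2.4 and 2.33 CPM in Smn1OE and 3.1, 3.52 and 3.39 CPM in Bap1KO libraries, against 12.4, 14.3 and 12.4 CPM in WT libraries. The libraries fell into 3 tiers with no overlap, WT highest, Bap1KO next and both SMN groups lowest. The log2 fold change was -1.96 (SE 0.179) in Bap1KO against WT, and -2.68 (SE 0.185) and -2.62 (SE 0.185) in Smn1OE_K186R and Smn1OE against WT.

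All 13 genes of the list of reticulons and other shapers of tubular endoplasmic reticulum were tested. In Bap1KO against WT 1 rose and 2 fell (list median -0.05), and 3 rose and 3 fell with media batch as a block. Reep6 averaged 1.64 ± 0.219 CPM in Bap1KO and 3.59 ± 0.956 CPM in WT cultures and fell (log2 fold change -1.13, SE 0.225, edgeR adjusted p = 0.0109). Reep2 rose (1.34, adjusted p = 0.0318), a call lost without any 1 of Bap1KO replicates 2 and 3 and WT replicates 1 and 3 (up to 0.117). Reep4 fell (-0.25, adjusted p = 0.0497). This call was lost with DESeq2 size factors, with no filter on low counts and with only the 2 groups in the fit. It was also lost without any 1 library other than Smn1OE_K186R replicate 2 (up to 0.191 over these settings). Against Bap1KO 4 rose and 1 fell in Smn1OE_K186R, and 3 rose and 2 fell in Smn1OE (list medians 0.30 and 0.07). Reep3 rose in both (0.61, adjusted p = 0.00107 in Smn1OE_K186R; 0.61, adjusted p = 0.00087 in Smn1OE), as did Spast, which severs microtubules (0.41, adjusted p = 0.00171 in Smn1OE_K186R; 0.39, adjusted p = 0.00184 in Smn1OE). Rtn4, the abundant reticulon also known as Nogo, averaged 1516.4 CPM in Smn1OE_K186R, 1532.2 CPM in Smn1OE and 1135.8 CPM in Bap1KO cultures, against 949 CPM in WT cultures. It rose against Bap1KO in Smn1OE_K186R (0.42, adjusted p = 0.0213) and in Smn1OE (0.43, adjusted p = 0.0181). The first call was lost with only the 2 groups in the fit and without Bap1KO replicate 1 or 3 or Smn1OE_K186R replicate 3 (up to 0.0929). The second was lost without Bap1KO replicate 1 or Smn1OE replicate 1 or 3 (up to 0.0752). Rtn2 was lower in the same cultures in which Rtn4 was higher.

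Crmp1 (ENSMUSG00000029121, chromosome 5) was high in SMN cultures. It was read at 3.14, 2.85 and 4.18 CPM in Smn1OE_K186R and 3.97, 4.24 and 5.51 CPM in Smn1OE libraries. Bap1KO libraries held 0.372, 0.839 and 0.363 CPM, against 0.715, 1.28 and 0.588 CPM in WT libraries. All SMN libraries lay above all others, and Bap1KO and WT overlapped, so here too a shift with Bap1 deletion was not shown by non-overlapping libraries. The log2 difference of Bap1KO to WT was -0.71 (SE 0.373), it was -0.89, -0.59 and -0.65 within batches A, B and C, and replicate 2 (batch B) was the highest of both groups. Without Bap1KO replicate 2 the difference was -1.22, and without WT replicate 2 it was -0.30. Against WT the log2 fold change was 1.97 (SE 0.355) in Smn1OE_K186R and 2.40 (SE 0.358) in Smn1OE. Evc overlaps Crmp1 on the opposite strand, and since the strand setting of the counting is not given in the sources used here, reads shared by the 2 genes cannot be assigned with certainty. Evc moved the other way, falling against Bap1KO in Smn1OE_K186R (-0.56, edgeR adjusted p = 0.0198) and in Smn1OE (-0.69, adjusted p = 0.00753).

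Of 13 CRMP and semaphorin-signalling genes 12 were tested, and in Bap1KO against WT 3 rose and 1 fell (list median -0.05), or 3 and 3 with the block. Plxna4, a semaphorin co-receptor, averaged 7.61 ± 1.83 CPM in Bap1KO and 2.34 ± 0.644 CPM in WT cultures (log2 fold change 1.70, SE 0.271, edgeR adjusted p = 0.00396). Nrp2 (0.47, adjusted p = 0.0304) and Gsk3b (0.30, adjusted p = 0.0353) rose and Dpysl2 fell (-0.67, adjusted p = 0.0141), but each of these calls was lost without some libraries. For Nrp2 these were Bap1KO replicates 1 and 2 and all WT replicates (up to 0.117), for Gsk3b all Bap1KO replicates, WT replicates 1 and 2 and Smn1OE replicate 1 (up to 0.125), and for Dpysl2 Bap1KO replicate 3 and WT replicate 1 (up to 0.0665). In each SMN group 5 rose and 0 fell against Bap1KO, with list medians of 0.24 in Smn1OE_K186R and 0.25 in Smn1OE. DESeq2 called the same numbers, 5 higher and 0 lower in each, and 6 genes of the list had an unadjusted p under 0.05 in each. Dpysl3, the CRMP family member also called CRMP4, averaged 194 ± 40.5 CPM in Smn1OE and 54.4 ± 25 CPM in Bap1KO cultures; it rose in Smn1OE_K186R (1.62, adjusted p = 0.00222) and in Smn1OE (1.83, adjusted p = 0.00113). Nrp2 and Nrp1, the neuropilin receptors of semaphorins, rose in Smn1OE_K186R (1.10, adjusted p = 0.000244, and 0.68, adjusted p = 0.00163) and in Smn1OE (1.16, adjusted p = 0.000131, and 0.59, adjusted p = 0.00285).

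Rundc3a (ENSMUSG00000006575, chromosome 11) was low in Bap1KO libraries alone. It was read at 1.2, 1.38 and 1.15 CPM in Smn1OE_K186R, 2.17, 2.04 and 0.984 CPM in Smn1OE and 0.283, 0.229 and 0.29 CPM in Bap1KO libraries, against 1.31, 1.77 and 1.3 CPM in WT libraries. The Bap1KO values rest on 15 to 19 counts per library. All Bap1KO libraries lay below all others, and the ranges of both SMN groups overlapped WT, Smn1OE_K186R through its replicate 2. No Smn1OE library lay inside the WT range: replicates 1 and 2 lay above every WT library and replicate 3 below, so that overlap rests on replicate 3. The log2 fold change was -2.44 (SE 0.325) in Bap1KO against WT, and the remaining difference to WT was -0.23 (SE 0.291) in Smn1OE_K186R and 0.25 (SE 0.288) in Smn1OE.

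Fabp7 (ENSMUSG00000019874, chromosome 10) was read at 1.49, 2.75 and 2.28 CPM in Smn1OE_K186R, 1.93, 2.73 and 3.28 CPM in Smn1OE and 1.04, 1.17 and 0.544 CPM in Bap1KO libraries, against 4.02, 4.93 and 2.4 CPM in WT libraries. Bap1KO lay below all others. The overlap of Smn1OE_K186R with WT was through Smn1OE_K186R replicate 2 and WT replicate 3, and that of Smn1OE also rested on WT replicate 3. The log2 fold change was -2.03 (SE 0.36) in Bap1KO against WT, and -0.80 (SE 0.343) and -0.52 (SE 0.341) in Smn1OE_K186R and Smn1OE against WT, or 39.4% and 25.5% of it.

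Cend1 (ENSMUSG00000060240, chromosome 7) was high in WT libraries alone. It was read at 1.4, 1.73 and 1.11 CPM in Smn1OE_K186R, 0.944, 1.77 and 1.15 CPM in Smn1OE and 1.92, 1.16 and 1.31 CPM in Bap1KO libraries, against 6.39, 7.25 and 5.56 CPM in WT libraries. All 9 libraries that had received 4-OHT lay below WT and overlapped each other. The log2 fold change to WT was -2.17 (SE 0.277) in Smn1OE_K186R, -2.30 (SE 0.279) in Smn1OE and -2.13 (SE 0.277) in Bap1KO.

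Of 8 RUN-domain and Rap2 genes all 8 were tested, and in Bap1KO against WT 0 rose and 1 fell (list median 0.01; 1 and 1 with the block), Rap2a (log2 fold change -0.35, edgeR adjusted p = 0.0167, up to 0.079 without Bap1KO replicate 3 or WT replicate 3). Rap2b, a small GTPase, rose against Bap1KO in Smn1OE_K186R (0.42, adjusted p = 0.00289) and in Smn1OE (0.45, adjusted p = 0.0019). In Smn1OE_K186R 2 rose and 1 fell and in Smn1OE 1 rose and 1 fell (list medians 0.15 and 0.06). Of 8 fatty acid-binding protein genes 3 were tested, and 1 fell in Bap1KO against WT (list median -0.34; 2 with the block). It was Fabp5, the epidermal member, at 57.4 ± 4.49 CPM in Bap1KO and 130.3 ± 14.8 CPM in WT cultures (-1.18, SE 0.233, adjusted p = 0.0101). Against Bap1KO edgeR called 0 of the 3 in either SMN group, with 1 at an unadjusted p under 0.05 in each, and DESeq2 called 1 in Smn1OE_K186R and 0 in Smn1OE (list medians -0.61 and -0.38). Fabp5 also fell relative to WT in Smn1OE (-1.73, adjusted p = 0.000144).

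The 10 genes thus reached different places with SMN. The libraries of Bap1KO and WT did not overlap for 8 of the 10, against 32.3% of all genes tested, a contrast that also chose the members. Of these 8, the libraries of Vgf, Rundc3a and Fabp7 overlapped WT and not Bap1KO in both SMN groups, and those of Adora2a did so in Smn1OE_K186R. Spock2 in both SMN groups and Adora2a in Smn1OE lay between Bap1KO and WT. Cend1 overlapped Bap1KO in both SMN groups, and Nptx1 and Rtn2 lay past Bap1KO on the side away from WT in both. Among the 5353 genes whose Bap1KO and WT libraries did not overlap, 10.1% overlapped WT alone in Smn1OE_K186R and 11.4% in Smn1OE. A further 14.4% and 11% overlapped both WT and Bap1KO, which none of the 8 members did. In the same order, 35.2% and 34.7% overlapped Bap1KO alone and 34.7% and 36.3% lay past Bap1KO. Another 1.81% and 2.32% lay between, and 3.74% and 4.37% lay past WT. The members were chosen for wide differences, which leave little room to overlap both groups, so these shares are no like-for-like scale for them. The number of members that overlapped WT, 4 in Smn1OE_K186R and 3 in Smn1OE, was 2 without Smn1OE_K186R replicate 2 and 2 without Smn1OE replicate 3 or WT replicate 3. In the SMN cultures in which Vgf, Rundc3a and Fabp7 overlapped WT, the FAP marker sum, mostly Ly6a, lay below WT and Cd34 did not, and the part of cell composition in these values was not tested.

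**Figure D2:**
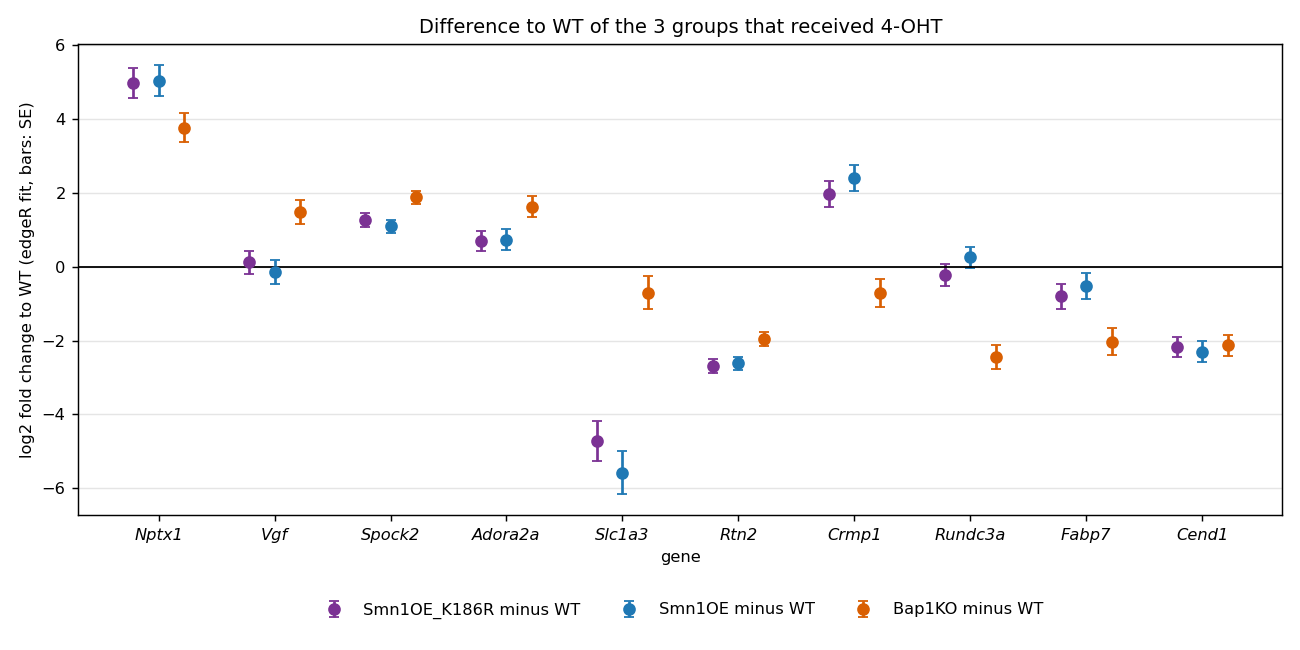
Log2 difference to WT of each of the 10 genes in Smn1OE_K186R, Smn1OE and Bap1KO, from the edgeR fit over 12 libraries; points are estimates, error bars are 1 SE, and the horizontal line at 0 is the WT level. Vgf and Rundc3a are no more than 0.25 from WT in both SMN groups and at 1.48 and -2.44 in Bap1KO, whereas Nptx1 is at 4.98 and 5.04 in the SMN groups and at 3.77 in Bap1KO.

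Within media batches, where each Bap1KO library meets the WT library of its own batch, the sign was the same in all 3 batches for each of the 10. This contrast also chose the members, and the share of all genes that keep their sign was not counted, so the agreement is a description only. Rundc3a differed by -2.09, -2.79 and -2.05 and Cend1 by -1.72, -2.61 and -2.06 in batches A, B and C. Adora2a ranged widest among the genes higher in Bap1KO, at 1.17, 2.09 and 1.61, and Spock2 was the steadiest at 1.90, 1.84 and 1.81. No SMN library shares a batch with a Bap1KO or WT library, so no within-batch value exists for those contrasts.

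**Figure D3:**
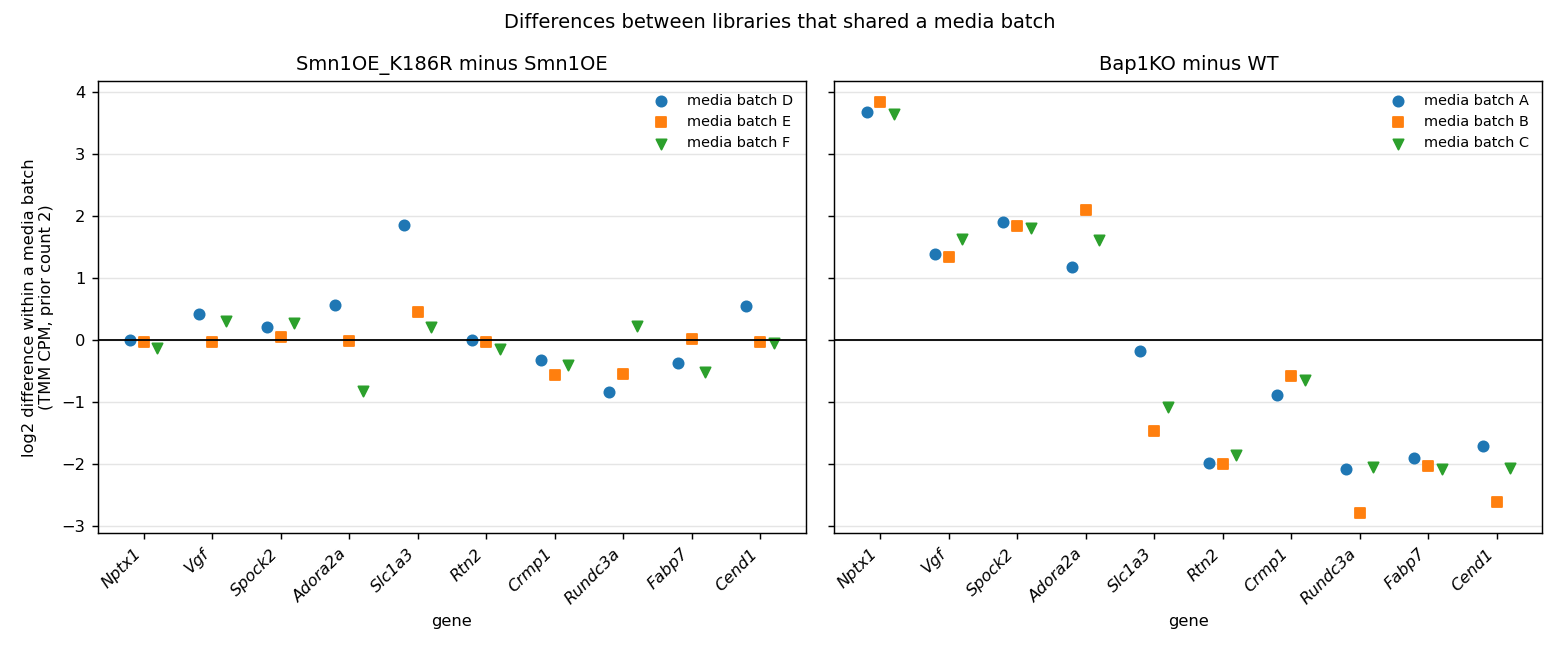
Log2 difference (CPM, prior count 2) of Smn1OE_K186R to Smn1OE within media batches D, E and F (left) and of Bap1KO to WT within batches A, B and C (right) for the 10 genes; each point is the difference of 2 libraries of 1 batch, and the horizontal line marks 0. Bap1KO differences keep their sign in all batches, in a contrast that also chose the genes, and Smn1OE_K186R differences cluster around 0, with Slc1a3 at 1.85 in batch D.

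The differences between the K186R form and unmutated SMN are a description too, since the genes were chosen over all 4 groups. Libraries of Smn1OE_K186R and Smn1OE overlapped for all 10. Over all genes 6.78% had libraries that did not overlap, so 0 of 10 is near the share of all genes. Over the whole table of 16597 genes edgeR called 0 between these groups, with 388 (2.34%) at an unadjusted p under 0.05, DESeq2 called 0, and a fit blocked on media batch called 48 (0.289%). The log2 difference of Smn1OE_K186R to Smn1OE was largest for Slc1a3 (0.85, SE 0.566), where the pairs of libraries in batches D, E and F differed by 1.85, 0.44 and 0.21. Crmp1 was lower in Smn1OE_K186R in each pair, by differences of -0.33, -0.57 and -0.40 (-0.43 over all libraries, SE 0.332 without the pairing). Rundc3a differed by -0.84, -0.55 and 0.22 in the 3 pairs and Adora2a by 0.56, -0.02 and -0.82, so neither kept its sign. Spock2 was higher in Smn1OE_K186R in each pair, at 0.20, 0.05 and 0.27. Over all libraries Nptx1 differed by -0.06 (SE 0.333), Rtn2 by -0.07 (SE 0.182), Vgf by 0.26 (SE 0.317), Fabp7 by -0.28 (SE 0.344) and Cend1 by 0.13 (SE 0.278). These values do not show that both forms of SMN act alike.

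Lists of general neuronal and glial genes showed which other neural genes moved in the same cultures. Of 26 pan-neuronal genes 19 were tested, and in Bap1KO against WT 1 rose and 0 fell (list median -0.12), or 5 and 3 with the block. The riser was Prph, a neuronal intermediate filament, at 0.759 ± 0.132 CPM in Bap1KO and 0.275 ± 0.0656 CPM in WT cultures (log2 fold change 1.45, edgeR adjusted p = 0.0277, up to 0.102 when Bap1KO replicate 2, Bap1KO replicate 3, WT replicate 1 or WT replicate 3 was left out). Against Bap1KO 4 rose and 1 fell in Smn1OE_K186R, and 5 rose and 1 fell in Smn1OE, with list medians of 0.51 and 0.64. DESeq2 called 4 higher and 1 lower in Smn1OE_K186R, and 4 higher and 0 lower in Smn1OE. In Smn1OE the fall (edgeR adjusted p = 0.0464) and 1 rise (0.0497) were lost with DESeq2 and without several single libraries (up to 0.204). In Smn1OE_K186R the fall and the rise of Elavl2 were lost with only the 2 groups in the fit and without some libraries (up to 0.112). Gap43, a growth cone protein, averaged 4.12 ± 0.861 CPM in Smn1OE and 1.36 ± 0.411 CPM in Bap1KO cultures (1.29, adjusted p = 0.00403 in Smn1OE_K186R; 1.59, adjusted p = 0.00135 in Smn1OE). Syn1, a synaptic vesicle phosphoprotein, rose as well (0.72, adjusted p = 0.0026 in Smn1OE_K186R; 0.63, adjusted p = 0.00431 in Smn1OE). Syt1, the calcium sensor of synaptic vesicle release, was called higher at 8 to 16 counts per library in Smn1OE_K186R (adjusted p = 0.00685) and 16 to 21 in Smn1OE (adjusted p = 0.0026), against 0 to 2 counts in Bap1KO. Against WT 9 rose and 2 fell in Smn1OE_K186R, and 8 rose and 2 fell in Smn1OE (list medians 0.50 and 0.46), where 50.5% and 50.4% of all genes were called. The whole list summed to 293 to 362 CPM in Smn1OE_K186R, 303 to 388 CPM in Smn1OE and 265 to 307 CPM in Bap1KO libraries, against 299.7 to 324 CPM in WT libraries, so the ranges of all 4 groups overlapped. Ncam1, Tubb3 and Uchl1 carried most of this sum, so it says little about the other genes of the list.

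Of 15 Schwann and other glial genes 9 were tested, and 0 rose and 2 fell in Bap1KO against WT (list median -0.36), or 1 and 4 with the block. Aldh1l1, an astrocyte folate enzyme, averaged 6.3 ± 1.24 CPM in Bap1KO and 16.3 ± 1.12 CPM in WT cultures (log2 fold change -1.37, edgeR adjusted p = 0.00785), and Pmp22, a myelin protein, also fell (-0.36, adjusted p = 0.0218, up to 0.0747 without any 1 of Bap1KO replicates 2 and 3 and the WT replicates). In each SMN group 0 rose and 2 fell against Bap1KO (list medians -0.31 in Smn1OE_K186R and -0.57 in Smn1OE). The list summed to 178 to 201 CPM in Smn1OE_K186R, 155 to 189.7 CPM in Smn1OE and 244 to 272 CPM in Bap1KO libraries, against 341 to 354 CPM in WT libraries. Immune markers summed to 7.42 to 10.2 CPM in Smn1OE_K186R, 8.4 to 12.5 CPM in Smn1OE and 3.9 to 5.59 CPM in Bap1KO libraries, against 2.37 to 4.01 CPM in WT libraries, nearly all of it Cd68, while Ptprc had at most 20 counts in a library. Endothelial markers summed to at most 1.86 CPM. The part of other cells in the members' values was not tested.

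REST, the repressor that keeps neuronal genes silent outside the nervous system, did not pass the test in Bap1KO against WT (log2 fold change -0.07, edgeR adjusted p = 0.604). All 12 genes of its complex were tested, and 1 rose and 0 fell there (list median 0.05, and 2 and 1 with the block). The riser was Sin3a (0.34, adjusted p = 0.0364). Its call was lost with only the 2 groups in the fit. It was also lost without any 1 of Bap1KO replicates 1 and 3, WT replicates 1 and 2 and Smn1OE replicates 1 and 2 (up to 0.133 over these settings). Rest rose in Smn1OE_K186R against Bap1KO (0.32, adjusted p = 0.00714), and in Smn1OE against Bap1KO it just missed the threshold in the same direction (0.20, adjusted p = 0.0504). Hdac1 and Ctdsp1 fell in Smn1OE against Bap1KO (-0.51, adjusted p = 0.00113, and -0.48, adjusted p = 0.00379). In all 1 rose and 3 fell in Smn1OE_K186R, and 0 rose and 2 fell in Smn1OE (list medians -0.08 and -0.03). Of 14 neurogenic transcription factors 5 were tested, and Neurog1 and Neurod1 had at most 2 counts in a library. In Bap1KO against WT 0 rose and 1 fell (list median -0.09; 0 and 2 with the block), Sox11 (-1.30, adjusted p = 0.0126, up to 0.0625 without Bap1KO replicate 3 or WT replicate 1). Hes1, a Notch target that holds back neurogenesis, averaged 36.2 ± 1.59 CPM in Smn1OE and 118 ± 17.6 CPM in Bap1KO cultures; it fell in Smn1OE_K186R (-1.74, adjusted p = 3.13e-06) and in Smn1OE (-1.70, adjusted p = 3.98e-06). In Smn1OE_K186R 1 rose and 2 fell and in Smn1OE 0 rose and 2 fell (list medians -0.62 and -0.48).

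**Figure D4:**
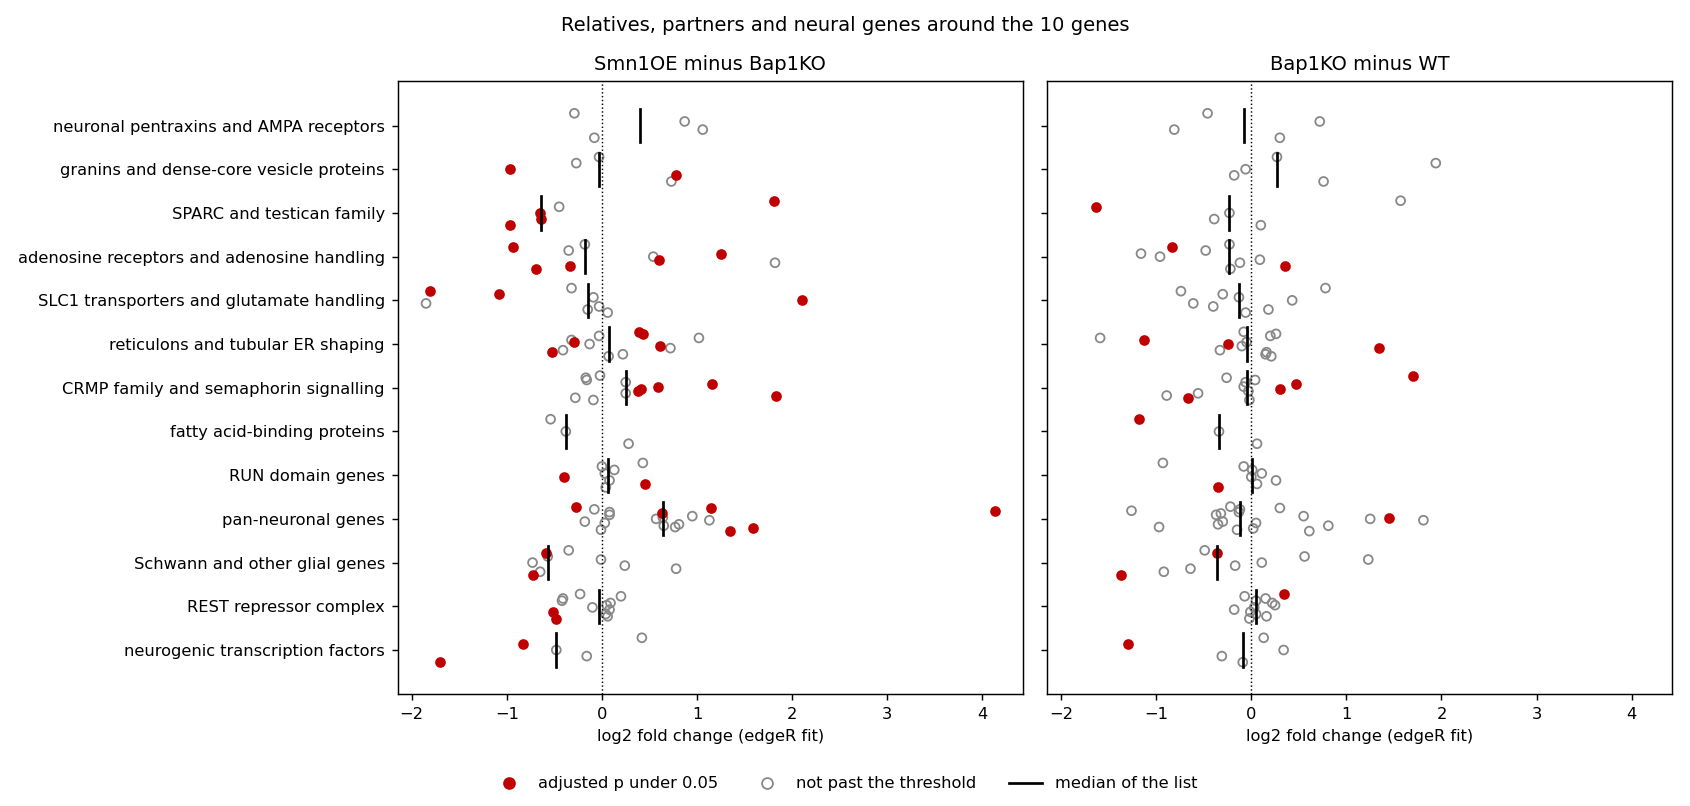
Log2 fold change of the tested genes of 13 lists, 1 row per list, in Smn1OE against Bap1KO (left) and Bap1KO against WT (right); filled points passed an edgeR adjusted p under 0.05, open points did not, and bars are list medians. Of the 113 tested genes 38 are filled in Smn1OE against Bap1KO and 17 in Bap1KO against WT; the point farthest right is Syt1, whose fitted value rests on 0 to 2 counts in Bap1KO libraries.

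Over the 13 lists, 149 symbols of which 113 were tested, 39 genes were called in Smn1OE_K186R against Bap1KO (32.6% of all genes tested were), 38 in Smn1OE against Bap1KO (33.5%) and 17 in Bap1KO against WT (9.72%). The 17 were 47 with media batch as a block, 6 without Bap1KO replicate 3 or WT replicate 1, and 10 without WT replicate 3. The 39 were 24 without Bap1KO replicate 1, and the 38 were 25 without Smn1OE replicate 3. Against WT 62 were called in Smn1OE_K186R and 59 in Smn1OE, where 50.5% and 50.4% of all genes were called. Of the 10 members themselves, in contrasts that chose them, libraries did not overlap for 9 in Smn1OE_K186R against Bap1KO (43.7% of all genes), 9 in Smn1OE against Bap1KO (48.6%), 6 in Smn1OE_K186R against WT (58.4%), 7 in Smn1OE against WT (62.4%) and 8 in Bap1KO against WT (32.3%).

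Nearest protein-coding neighbours of the 10 genes, taken from the gene order of the GRCm38 annotation, were mostly not called in Bap1KO against WT. Of 20 neighbours 14 were tested, and 1 rose and 1 fell (list median 0.05; 3 and 1 with the block). Smpdl3a, the neighbour of Fabp7, averaged 10.7 ± 1.13 CPM in Smn1OE_K186R, 10.5 ± 0.945 CPM in Smn1OE and 11.2 ± 0.882 CPM in Bap1KO cultures, against 24.6 ± 2.02 CPM in WT cultures (SD, n = 3 each). It fell in Bap1KO (log2 fold change -1.14, SE 0.116, edgeR adjusted p = 0.000899), as Fabp7 was lower there, and its difference between SMN groups and Bap1KO missed the threshold (-0.07, adjusted p = 0.686 in Smn1OE_K186R; -0.09, adjusted p = 0.594 in Smn1OE), where Fabp7 was higher. Specc1l, beside Adora2a, rose in Bap1KO (0.26, adjusted p = 0.0329). This call was lost with no filter on low counts and without any 1 of Bap1KO replicates 1 and 3 and the WT replicates (up to 0.135). Against Bap1KO 2 rose and 6 fell in each SMN group (list medians -0.24 in Smn1OE_K186R and -0.26 in Smn1OE). Beside Slc1a3, Nipbl rose in Smn1OE_K186R (0.53, adjusted p = 0.00161) and in Smn1OE (0.42, adjusted p = 0.00428), and Ranbp3l was called lower at 0 to 1 counts per library, against 10 to 33 counts in Bap1KO libraries (adjusted p = 0.00228 in Smn1OE_K186R; 0.00201 in Smn1OE). Plod3, beside Vgf, fell in Smn1OE_K186R (-0.73, adjusted p = 0.000881) and in Smn1OE (-0.80, adjusted p = 0.000463), as did Gatd1, beside Cend1 (-0.61, adjusted p = 0.00126, and -0.66, adjusted p = 0.000714).

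Likeness was measured as the root-mean-square difference of log2 CPM, each gene centred on its own mean, over the 12 libraries. Rtn2 lay closest to Slc2a6 (0.26) and Actn3 (0.27), Cend1 to Gipc3 (0.26) and Ogn (0.27), and Spock2 to Ndrg1 (0.27) and Cnih2 (0.34). Adora2a lay closest to Cnih2 (0.31) and Ccdc78 (0.34), and Vgf to Car9 (0.31) and Nxph4 (0.33). Crmp1 lay closest to Acsbg1 (0.31) and Syt1 (0.32), Fabp7 to Kif5c (0.32) and Zfp184 (0.36), and Rundc3a to Samd10 (0.44) and Usp29 (0.47). Slc1a3, nearest to Abi3bp (0.55) and Itga11 (0.58), and Nptx1, nearest to Chrm3 (0.68) and Foxl2 (0.75), had no gene as close as the others did. Among the 10 themselves, the closest pairs were Rtn2 with Cend1 (0.38) and Spock2 with Adora2a (0.38). Ogn, the matrix proteoglycan osteoglycin, showed the Cend1 pattern at 2.63 CPM in Smn1OE_K186R, 2.16 CPM in Smn1OE and 2.88 CPM in Bap1KO cultures, against 12.8 CPM in WT cultures. Kif5c, a neuronal kinesin, followed Fabp7 at 5.48 CPM in Smn1OE_K186R, 5.66 CPM in Smn1OE and 2.62 CPM in Bap1KO cultures, against 7.18 CPM in WT cultures. Itga11, a collagen-binding integrin, followed Slc1a3 at 4.2 CPM in Smn1OE_K186R, 2.51 CPM in Smn1OE and 41.7 CPM in Bap1KO cultures, against 61.8 CPM in WT cultures.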

How the data were processed

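The deposited files hold raw read counts per Ensembl gene ID for each of the 12 libraries, and the authors' counts were used as deposited, with no normalization before deposit. Per the submitters' processing notes, the tools were STAR 2.6.1, HTSeq 0.9.1, cutadapt 1.4.2, CASAVA 1.8.2 and DESeq2, on the GRCm39 build; the annotation and the strand setting are not given in the sources used here. The 5 closing rows that name no gene took 11.1 to 14.6% of the records of a library and entered neither library sizes nor tests. Symbols came from GENCODE M21 and matched 55154 IDs, and chromosomes, neighbours and promoters rest on GRCm38, so no position of the counted build is given.

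Counts were tested with edgeR 4.0.16 (R 4.3.3): genes were kept by filterByExpr (minimum count 10), libraries were scaled by TMM, and 1 quasi-likelihood model held all 12 libraries and 4 groups, leaving 8 residual degrees of freedom. Tests were 2-sided, with Benjamini-Hochberg adjustment over all 16597 genes and calls at an adjusted p under 0.05, and the prior count of the log2 fold changes was 0.125. Depth was similar enough that replicate spread (common biological coefficient of variation 0.179) limits precision. An exact permutation test of 3 against 3 cannot go below p = 0.1 and was not used. Deviations from the group means of libraries that share a media batch correlated at 0.311, 0.435 and 0.24 (batches A, B and C, Bap1KO and WT) and 0.384, 0.302 and 0.431 (batches D, E and F, the SMN groups). The labels name the batches, so the batches pair the libraries, and fits with the batch as a block are given beside counts they move. No 2 libraries were identical. The statistics were tested on simulated data. The simulated libraries had no media batches, and genes were changed by large amounts in Bap1KO alone. The simulation thus does not cover the pairing by batch, small differences or the SMN comparisons.

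The members and the gene lists were chosen with earlier results of these data known. Named genes were drawn from the 10 members, list genes or neighbours that passed in a comparison, at most 4 per list and comparison by smallest adjusted p, and for each member the 2 genes with the most similar log2 CPM (prior count 2). For the comparisons with WT of the SMN groups the text mostly gives list totals in place of names, and not every admitted gene is named elsewhere. Alternatives were size factors and tests of DESeq2 1.42.0, no filter, a fit of only the 2 groups compared, the media batch as a block or, with limma 3.58.1, as a random effect, and leaving out each library. Promoters are those of RefSeq on GRCm38.p6. Figures were drawn with matplotlib 3.10.9.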

Additional observations from a re-analysis of the deposited data

How the results depend on the processing

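In Bap1KO against WT the number of genes called was 1614, and it was 2560 with the DESeq2 test, 4814 with the media batch as a replicate block and 535 to 2046 when single libraries were left out. It was 977 without Bap1KO replicate 2, 535 without Bap1KO replicate 3, and 671, 819 and 896 without WT replicates 1, 2 and 3. The list genes called there were 17, against 26 with the DESeq2 test, 47 with the replicate block and 6 to 22 when single libraries were left out (6 without Bap1KO replicate 3 or WT replicate 1, 10 without WT replicate 3). In Smn1OE_K186R against Bap1KO 5416 genes were called, 3462 with only these 2 groups in the fit and 3385 to 5309 without single libraries; the list count was 39, 25 with only these 2 groups and 24 to 39 without single libraries. In Smn1OE against Bap1KO 5567 genes were called and 3512 to 6119 without single libraries (3524 without Smn1OE replicate 3, 3512 without Bap1KO replicate 1), with 38 list genes and 25 to 42. The replicate block called 48 genes in Smn1OE_K186R against Smn1OE, where 0 were called without it. The members that overlapped WT in Smn1OE_K186R numbered 4, and 2 to 4 without single libraries. No member's log2 fold change that moved by more than the replicate spread reversed its direction, while differences near 0 can change sign without single libraries. Of the members' log2 fold changes under all alternatives 1011 moved by less than the replicate spread and 9 by more: without Bap1KO replicate 2 Nptx1 was 1.77 in Smn1OE_K186R and 1.83 in Smn1OE against Bap1KO and 3.21 in Bap1KO against WT, and Crmp1 was 3.19, 3.62 and -1.22 in the same comparisons; without Bap1KO replicate 1 Slc1a3 was -3.27, -4.12 and -1.46. The cause was not tested. Members with few counts, such as Rundc3a in Bap1KO, are limited by depth as well as by replicate spread.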
